A study of Mus musculus with 16 samples.

Results

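The immediate early genes described here are 10 of the 21965 genes in the count table of a mouse ileum RNA-seq study. They were chosen by name: Fos, Fosb, Egr1, Jun, Junb, Atf3, Ier2, Dusp1, Nr4a1 and Zfp36. All 10 were counted in each of the 16 libraries, from 10 reads (Fosb) to 3809 reads (Zfp36), and all 10 were among the 13811 genes that passed the filter on low counts.

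Immediate early genes are transcribed within minutes of a signal from already present factors such as SRF with its ETS partners and CREB, without new protein being made. Most encode transcription factors: Fos, FosB, Jun, JunB and ATF3 pair through leucine zippers and bind AP-1 or CRE sites, EGR1 is a zinc finger factor that binds GC-rich sites, and NR4A1 is an orphan nuclear receptor. Others shut the response down: DUSP1 removes phosphate from MAP kinases, and ZFP36 (tristetraprolin) binds AU-rich elements and hastens the decay of short-lived mRNAs. In the gut they respond to feeding, growth factors, injury and the handling of the tissue itself.

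The study asked how chronic ethanol (EtOH) and a raised content of n3 polyunsaturated fatty acids shape the intestinal transcriptome. Male C57BL/6 mice were compared in 4 groups with 1 library per mouse: WT PF (n = 4), fat-1 PF (n = 4), WT EtOH (n = 3) and fat-1 EtOH (n = 5). WT mice were littermates without the transgene. The fat-1 mice (Fat1+/- in the labels) were heterozygous for fat-1, a Caenorhabditis elegans desaturase expressed in all tissues that turns n6 into n3 fatty acids. The transgene was not analysed here. All mice received the same kind of liquid diet; EtOH mice took EtOH in steps up to 6%, held for 3 weeks, and pair-fed (PF) mice had the calories replaced by maltose dextrin. Segments of the terminal ileum were flushed and frozen. The paper calls the tissue intestinal mucosa but describes no separation of the layers. Smooth muscle markers were found in every library, so each library is read here as a mix of mucosa and muscle.

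The libraries held 8422645 to 11438539 counted reads, and the level that 3 counts give was 0.246 to 0.421 CPM (counts scaled to a common library size with TMM factors). In all, 5 libraries stood apart in regional markers. The 7 large intestine markers summed to 5891 CPM in WT EtOH mouse 2 and to 12656 and 14137 CPM in fat-1 EtOH mice 3 and 4, against 188 to 1152 CPM elsewhere. The 5 proximal small intestine markers summed to 11391 and 11066 CPM in fat-1 PF mice 2 and 4, and to 208 to 3336 CPM in the other PF mice. They summed to 9.5 to 41.3 CPM in EtOH mice, so the diets did not overlap in them, with or without those PF mice. The 5 ileum markers were found in all 16 libraries (404 to 8049.5 CPM) and were lowest in those proximal libraries and in fat-1 EtOH mice 3 and 4. The 8 smooth muscle markers summed to 958 to 1512 CPM in PF and 1962 to 4179 CPM in EtOH mice, without overlap. No marker of these 4 lists was at 0 throughout a group. In the labels, libraries 1 to 8 were PF and libraries 9 to 16 EtOH, so library order and diet cannot be told apart.

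The stretches just before the transcription start are shown for 4 members on which the results turn, 3 that changed with EtOH in fat-1 mice (Fos, Junb, Nr4a1) and Dusp1, the single member with a full CRE in its window. They come from RefSeq on GRCm38.p6 (the mouse assembly the authors call mm10), are written on the gene's strand and lie outside annotated exons. The starts of Nr4a1 and Dusp1 in RefSeq lie inside longer gene spans in GENCODE. Capitals mark matches, on either strand, to the CRE (TGACGTCA), its core TGACG, the EGR site GCGGGGGCG or the TATA box TATAAA. Fos lies on the plus strand (chr12:85473770-85473889), Junb on the minus strand (chr8:84978749-84978868), Nr4a1 on the plus strand (chr15:101266726-101266845) and Dusp1 on the minus strand (chr17:26508582-26508641).
Fos: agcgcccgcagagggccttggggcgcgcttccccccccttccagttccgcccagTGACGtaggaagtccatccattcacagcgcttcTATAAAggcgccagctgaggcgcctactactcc
Junb: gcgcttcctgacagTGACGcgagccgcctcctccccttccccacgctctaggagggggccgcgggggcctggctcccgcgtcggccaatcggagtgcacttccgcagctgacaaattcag
Nr4a1: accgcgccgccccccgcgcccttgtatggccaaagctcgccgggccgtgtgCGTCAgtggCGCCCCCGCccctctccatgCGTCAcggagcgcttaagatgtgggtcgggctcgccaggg
Dusp1: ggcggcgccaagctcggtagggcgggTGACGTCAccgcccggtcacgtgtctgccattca

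The 250 bases before the start were searched on both strands in the 8 members with a RefSeq window (Egr1 and Ier2 had no entry). The full CRE was found in 1 of 8, Dusp1, from -143 to -136 relative to the start, and in 1.55% of all 32851 windows of that length. Its core TGACG, which also counts inside a full CRE and was added after the windows had been read, was found in 6 of 8 (Fos, Fosb, Junb, Atf3, Dusp1 and Nr4a1) and in 17.8% of all windows. The AP-1 site TGANTCA was found in 0 of 8 and in 6.75% of all windows. The EGR site GCGTGGGCG was found in 0 of 8 (0.536% of all), and its form GCGGGGGCG in 3 of 8 (Fosb, Nr4a1 and Zfp36, 2.57% of all). The CArG box, which SRF binds, was found in 1 of 8, Zfp36 (1.47% of all), where the RefSeq window lies inside an annotated exon. The ETS core GGAA was found in 7 of 8 and in 93.4% of all windows. TATAAA, also added later, was found in Fos alone of the 8 (12.4% of all). These are matches of letters and not measured binding.

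Compared per exon length (RPKM, from the union of annotated exons), the group means fell into 3 ranges in every group, though single mice crossed them. Zfp36, Fos and Junb were highest, and in WT PF mice they measured 66.7 ± 9.31, 64.0 ± 11.03 and 61.8 ± 14.5 RPKM (SD, n = 4), which differed by less than the spread between mice. Ier2 (32.9 ± 2.22 RPKM), Jun (26.8 ± 2.30) and Atf3 (15.99 ± 5.77) came next in WT PF mice. Dusp1 (3.74 ± 0.555), Egr1 (2.76 ± 0.680), Nr4a1 (0.884 ± 0.147) and Fosb (0.444 ± 0.180) were lowest. In the other 3 groups the mean of Egr1 stood above that of Dusp1, by more than either SD in WT EtOH mice (8.72 ± 3.46 against 4.63 ± 0.347 RPKM) and by less than the SD of Egr1 in both fat-1 groups, while Fosb had the lowest mean and Nr4a1 the next lowest in all 4 groups. In fat-1 EtOH mice neighbouring ranges differed by less than the spread between mice, with Fos at 43.4 ± 21.8 and Ier2 at 38.5 ± 13.1 RPKM, and Atf3 at 12.9 ± 2.97 and Egr1 at 10.2 ± 7.69 RPKM. Fosb rests on few reads, so its values carry the largest counting error of the 10.

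**Figure D1:**
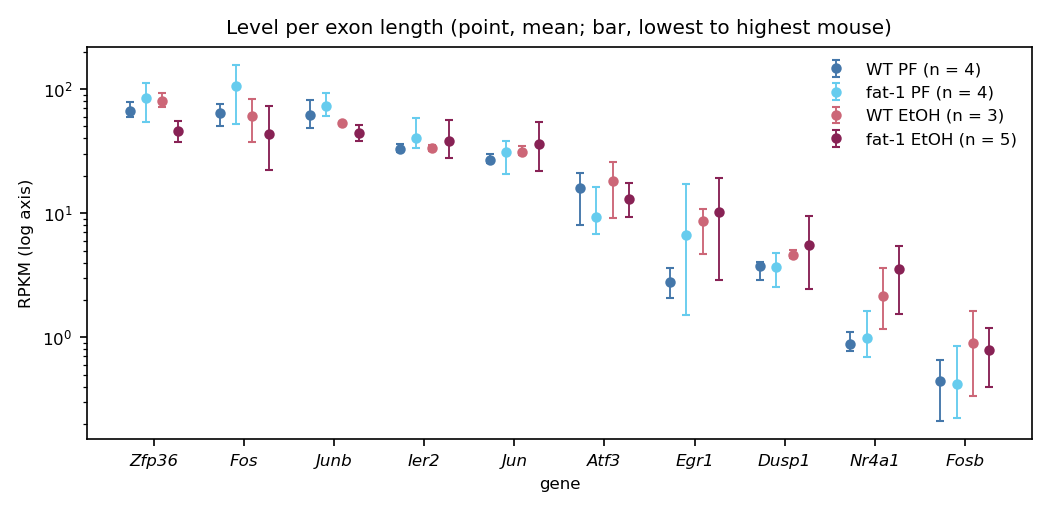
Level per exon length of each immediate early gene (RPKM, log axis) in the 4 groups; points are means over mice and bars run from the lowest to the highest mouse. Zfp36, Fos and Junb lie at the top in all groups (43.4 to 106 RPKM), and Nr4a1 and Fosb at the bottom (0.421 to 3.53 RPKM).

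Fos, the partner that lends AP-1 its activating strength (chr12:85473890-85477273 in GENCODE on GRCm38, plus strand), was lower in fat-1 EtOH than in fat-1 PF mice. Fat-1 PF mice measured 124, 228, 369 and 272 CPM, and fat-1 EtOH mice 95.2, 52.6, 171, 136 and 55.5 CPM. Of the 5 EtOH mice 3 lay below all PF mice of that genotype. The others, fat-1 EtOH mice 3 and 4 with high large intestine markers, lay above the lowest PF mouse. The log2 fold change was -1.28 (SE 0.37, adjusted p = 0.0153). Adjusted p-values of fold changes are from the quasi-likelihood test of edgeR, corrected over all tested genes by the Benjamini-Hochberg method. WT mice showed no such separation, with 142, 180.0, 161 and 119 CPM in WT PF and 195, 87.5 and 149.7 CPM in WT EtOH mice. In whole tissue, fewer cells that express a gene and less RNA per cell cannot be told apart.

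Junb (chr8:84974484-84978718, minus strand) encodes a Jun partner that often restrains c-Jun. Fat-1 PF mice measured 139, 155, 215 and 160.4 CPM, and fat-1 EtOH mice 103, 118, 88.0, 90.4 and 109 CPM. The lowest values, 88.0 and 90.4 CPM, were in fat-1 EtOH mice 3 and 4, the libraries with high large intestine markers. All 5 EtOH mice lay below all 4 PF mice, with a log2 fold change of -0.72 (SE 0.15, edgeR adjusted p = 0.00281). The exact two-sided permutation test gave p = 0.00794, the smallest that 5 against 4 mice allow. WT PF mice measured 135, 189.6, 133 and 111 CPM and WT EtOH mice 119, 125 and 122 CPM, which overlapped, and all 5 fat-1 EtOH mice also lay below all 3 WT EtOH mice (exact permutation p = 0.0536).

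The other AP-1 members did not pass the test in any comparison. Jun (chr4:95049034-95052222, minus strand), the central partner of AP-1, spanned 66.1 to 123 CPM in PF and 70.0 to 175 CPM in EtOH mice. Its highest values, 175 and 154 CPM, were in fat-1 EtOH mice 3 and 4, the libraries with high large intestine markers. Fosb (chr7:19302696-19310051, minus strand), known for long-lived splice forms, spanned 1.31 to 5.28 CPM in PF and 2.10 to 10.1 CPM in EtOH mice. Atf3 (chr1:191170296-191218039, minus strand), a stress-induced bZIP repressor, measured 34.4 ± 12.4 CPM in WT PF and 20.1 ± 10.1 CPM in fat-1 PF mice (exact permutation p = 0.0857, n = 4 and 4). Within EtOH mice, Atf3 was lowest in the 3 libraries with high large intestine markers (19.6 to 25.0 CPM) and 27.6 to 55.3 CPM in the other 5.

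Egr1 (chr18:34859823-34864984, plus strand) varied most among mice of all members, 12.6-fold from lowest to highest. WT PF mice measured 9.29, 10.9, 13.1 and 16.3 CPM, and WT EtOH mice 47.3, 21.2 and 48.8 CPM. All 3 EtOH mice lay above all 4 PF mice (exact permutation p = 0.0286, the smallest that 3 against 4 mice allow). The log2 fold change of 1.66 (SE 0.74) did not pass the test over all genes (edgeR adjusted p = 0.334). In fat-1 mice the groups overlapped, with 6.78, 22.0, 76.9 and 14.4 CPM in PF and 12.9, 21.9, 85.5, 80.4 and 27.5 CPM in EtOH mice. The 2 highest values in EtOH mice were again in fat-1 EtOH mice 3 and 4.

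Nr4a1 (chr15:101254269-101274795, plus strand) rose with EtOH in fat-1 mice. Fat-1 PF mice measured 2.44, 2.53, 5.74 and 3.19 CPM, and fat-1 EtOH mice 5.42, 6.97, 19.2, 13.6 and 16.9 CPM. The highest values were in fat-1 EtOH mice 3 and 4, with high large intestine markers, and in mouse 5, with high B cell markers. Mice 1 and 2 of that group had 5.42 and 6.97 CPM, beside 5.74 CPM in the highest PF mouse. Of the 5 EtOH mice 4 lay above every PF mouse, and the log2 fold change was 1.84 (SE 0.43, edgeR adjusted p = 0.00482). In WT mice, 2.73, 3.06, 2.78 and 3.85 CPM stood against 12.6, 4.09 and 5.71 CPM, and here the groups did not overlap (exact permutation p = 0.0286). The WT log2 fold change of 1.27 (SE 0.47) did not pass the test over all genes (edgeR adjusted p = 0.25), and it was 0.66 without WT EtOH mouse 1, which had the 12.6 CPM. Averaged over both genotypes, Nr4a1 was higher in EtOH mice by 1.55 on the log2 scale (SE 0.32, edgeR adjusted p = 0.00229).

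Ier2 (chr8:84661331-84662852, minus strand), a short nuclear regulator, was the steadiest member, 2.08-fold from the lowest to the highest mouse. It measured 47.1 to 54.8 CPM in WT PF and 48.6 to 53.6 CPM in WT EtOH mice. In all, 3 mice stood above the rest, fat-1 PF mouse 3 with 88.8 CPM and fat-1 EtOH mice 3 and 4 with 73.2 and 86.4 CPM. No comparison passed the test.

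Of the feedback members, Dusp1 (chr17:26505590-26562128, minus strand) measured 9.62, 13.2, 13.2 and 13.4 CPM in WT PF and 14.9, 14.5 and 16.6 CPM in WT EtOH mice. The groups did not overlap (exact permutation p = 0.0286), but the change of 0.31 on the log2 scale was within its error (SE 0.34, edgeR adjusted p = 0.723). In fat-1 mice it spanned 8.48 to 15.7 CPM with PF and 8.08 to 31.7 CPM with EtOH, the top values of 31.7 and 22.1 CPM being those of fat-1 EtOH mice 3 and 4.

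Zfp36 (chr7:28376784-28380253, minus strand) fell with EtOH in fat-1 mice. Fat-1 PF mice measured 189, 282, 392 and 312 CPM, and fat-1 EtOH mice 176, 191, 133, 131 and 165 CPM. The lowest values, 133 and 131 CPM, were again in fat-1 EtOH mice 3 and 4. Of the 5 EtOH mice 4 lay below every PF mouse, and the log2 fold change was -0.88 (SE 0.18, edgeR adjusted p = 0.00234). WT mice went the other way without passing the test, from 205, 274, 239 and 208 CPM in WT PF to 251, 262 and 320.0 CPM in WT EtOH mice. All 5 fat-1 EtOH mice lay below all 3 WT EtOH mice (exact permutation p = 0.0179, the smallest that 5 against 3 mice allow), with a log2 fold change of -0.80 (SE 0.20, p = 0.000937 before and 0.757 after adjustment in edgeR).

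**Figure D2:**
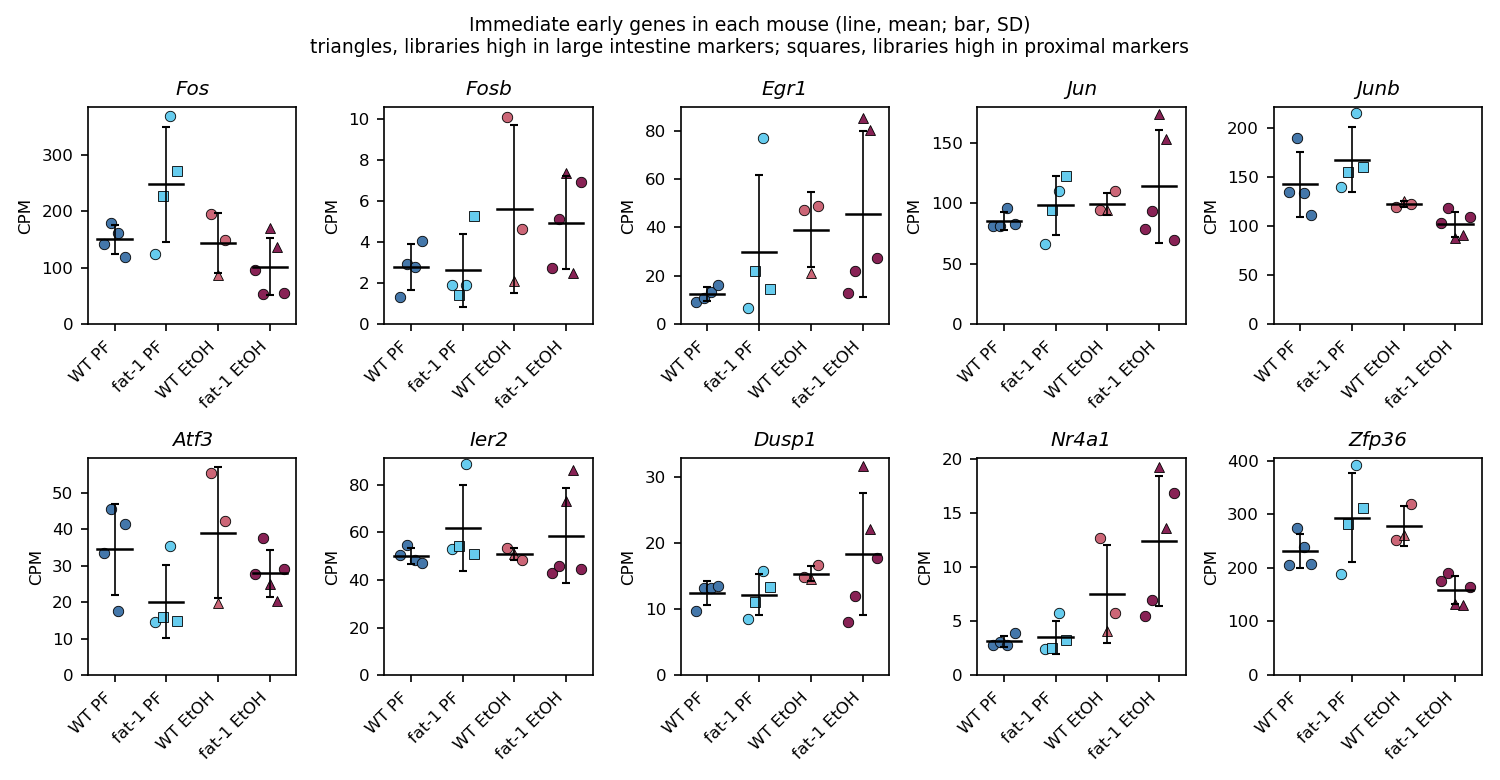
CPM of each immediate early gene (linear axes from 0) in every mouse of the 4 groups, with the mean (line) and SD (bar); triangles are the 3 libraries high in large intestine markers and squares the 2 high in proximal markers. Zfp36 and Junb lie lowest in fat-1 EtOH mice, and Nr4a1 is higher in EtOH than in most PF mice. The 2 triangles of fat-1 EtOH hold the top Fos, Egr1, Jun, Ier2 and Dusp1 values of their group and the lowest Junb, Zfp36 and Atf3 values.

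The main comparison of EtOH with PF in fat-1 mice called 4 of the 10 members, against 37.4% of all tested genes, so the share called was close to that of the transcriptome. DESeq2 called the same 4 (40.2% of all genes), limma voom called Fos, Junb and Zfp36 (26.8%) with Nr4a1 at 1.34 (limma adjusted p = 0.0945), and a fit of those groups alone called Junb, Zfp36 and Nr4a1 (23.2%) with Fos at -1.26 (edgeR adjusted p = 0.0552). The members split by direction: Fos, Junb and Zfp36 were lower and Nr4a1 higher. Their median log2 fold change was 0.35 (all genes 0.05), and their median size of change, direction aside, was 0.67 (all genes 0.39). The groups did not overlap for 1 of 10 members, Junb, against 24% of all genes. The median was -0.35 without the 3 libraries high in large intestine markers, which are fat-1 EtOH mice 3 and 4 and, outside this comparison, WT EtOH mouse 2. All 4 members kept their calls without those libraries, against 29.7% of all genes (Fos -1.84, Junb -0.58, Zfp36 -0.70, Nr4a1 1.52 on the log2 scale, edgeR adjusted p from 0.00328 to 0.0272).

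Without the 2 libraries high in proximal markers, Junb and Zfp36 were called (-0.80 and -0.86, edgeR adjusted p = 0.0234 and 0.0335), against 13.9% of all genes. Fos at -1.27 and Nr4a1 at 1.61 missed the threshold (edgeR adjusted p = 0.0834 and 0.0761). Without all 5 libraries that stood apart, Fos (-1.85, edgeR adjusted p = 0.0275) and Ier2 (-0.66, adjusted p = 0.032) were called lower, against 11.9% of all genes. Junb at -0.67, Zfp36 at -0.70 and Nr4a1 at 1.28 then missed the threshold (edgeR adjusted p = 0.0613, 0.0911 and 0.137). Without fat-1 PF mouse 3, the highest of its group in Fos, Junb, Zfp36 and Nr4a1, Fos was at -1.02 (edgeR adjusted p = 0.0559). Junb, Zfp36 and Nr4a1 kept their calls without that mouse. The 8 smooth muscle markers all rose in the same comparison, Cnn1 by 1.81 and Myh11 by 1.53 on the log2 scale (edgeR adjusted p = 0.000431 and 0.000308), and with their mean as a covariate 0 of 10 members and 0 of all genes were called. In that fit Fos was at -3.12, Junb at -0.51, Zfp36 at -0.54 and Nr4a1 at 0.68 on the log2 scale (edgeR adjusted p = 0.0787, 0.335, 0.376 and 0.585). Other marker lists moved in the same comparison: 4 of 7 large intestine, 4 of 5 fibroblast and 5 of 6 enteric neuron and glia markers rose, and 5 of 5 proximal markers and 2 of 5 epithelial markers fell. Of the 2 mast cell markers tested, Kit rose by 1.99 on the log2 scale (SE 0.39, edgeR adjusted p = 0.00182). Of the endothelial, macrophage, B cell and T cell markers 0 were called in edgeR, although the B cell markers summed to 476 CPM in fat-1 EtOH mouse 5 against 2.14 to 98.3 CPM elsewhere. That mouse also had the highest T cell (141 CPM), macrophage (251 CPM), endothelial (126 CPM), fibroblast (381 CPM) and adipocyte (480 CPM) sums of all mice. With the large intestine score as a covariate, added after seeing the data, Junb (-0.60) and Zfp36 (-0.66) were called, against 18.5% of all genes, and Fos at -1.52 and Nr4a1 at 1.66 missed the threshold (edgeR adjusted p = 0.0641 and 0.0585). The part of the fibroblast, neuron and glia, epithelial, mast cell, endothelial, macrophage, B cell, T cell and adipocyte markers in the values of the members was not tested. Since neither the muscle nor the proximal markers overlapped between diets, neither muscle content nor regional make-up can be told apart from diet in these libraries.

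The comparison of EtOH with PF in WT mice called 0 of 10 members in edgeR, against 0.0796% of all genes, and 2 members had an unadjusted p under 0.05 (Egr1 and Nr4a1), as had 14.1% of all genes. DESeq2 also called 0 members (1.86% of all genes), and limma voom called 3 higher (Fosb, Egr1 and Nr4a1), against 20.7% of all genes. The groups did not overlap for 3 of 10 members, Egr1, Dusp1 and Nr4a1, all higher with EtOH, against 24.3% of all genes. All 8 smooth muscle markers were also higher, with an unadjusted p under 0.05 in edgeR and 0 called. With their mean as a covariate Egr1 was at -0.11 and Dusp1 at -0.34 on the log2 scale, and Nr4a1 kept its sign. The median log2 fold change was 0.24 (all genes 0.01). WT EtOH mouse 2, high in large intestine markers, had the lowest Egr1, Dusp1 and Nr4a1 of its group.

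With the genotypes averaged, 2 of 10 members were called (Junb lower by 0.47 and Nr4a1 higher, edgeR adjusted p = 0.00701 and 0.00229), against 35.9% of all genes. Without the 3 libraries high in large intestine markers 4 were called (32.9% of all genes), Fos and Junb lower and Fosb and Nr4a1 higher. DESeq2 called 5 of 10, against 38.9% of all genes, and limma voom 4 of 10, against 42.5%, adding Fos and Egr1 in both and Fosb in DESeq2. With the large intestine score as a covariate the Junb call was lost. The smooth muscle score ended the Junb and Nr4a1 calls, as it ended those of all other genes.

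Between genotypes, fat-1 PF against WT PF called 0 of 10 members, against 0% of all genes, with 0 members at an unadjusted p under 0.05 in edgeR and 0 calls among the members in DESeq2 (1.37% of all genes) and limma voom (0.217%). The groups did not overlap for 0 of 10 members, against 6.87% of all genes. Fat-1 EtOH against WT EtOH called 0 of 10 members, against 0.00724% of all genes, with 1 member, Zfp36, at an unadjusted p under 0.05. DESeq2 (0.0362% of all genes) and limma voom (0.00724%) also called 0 members. The groups did not overlap for 2 of 10 members, Junb and Zfp36, both lower in fat-1 mice, against 2.45% of all genes.

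The difference between the genotypes in their EtOH change was tested as an interaction. It called 0 of 10 members in edgeR, DESeq2 and limma voom, against 0% of all genes. In edgeR 3 members had an unadjusted p under 0.05, all with a more negative EtOH change in fat-1 mice: Zfp36 (difference of -1.15 on the log2 scale, SE 0.27), Fos (-1.22, SE 0.56) and Junb (-0.50, SE 0.23). Their adjusted p was 0.595, as it was for the top gene of the table. A difference between the genotypes in the EtOH response of these genes was therefore not shown over all genes. Among all genes, 8.26% had an unadjusted p under 0.05 for this term.

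**Figure D3:**
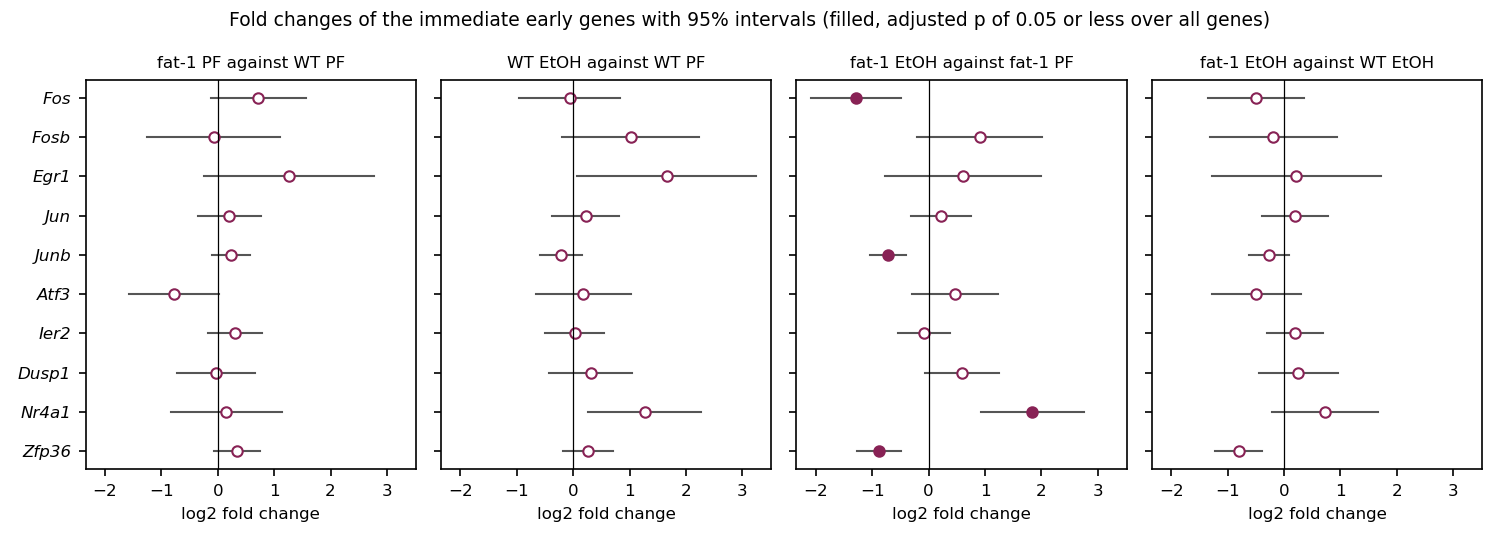
Log2 fold changes of the 10 members with 95% intervals from the edgeR fit in the 4 pairwise comparisons; filled points passed an adjusted p of 0.05 over all genes. Only the comparison of fat-1 EtOH with fat-1 PF holds filled points, for Fos (-1.28), Junb (-0.72), Zfp36 (-0.88) and Nr4a1 (1.84).

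Other genes of the same response were taken from fixed lists, and in fat-1 EtOH against fat-1 PF their calls went both ways. Each count of calls below stands against the 37.4% of all tested genes called in that comparison. Of 10 further AP-1 genes 1 was called, Fosl1, which stood below the level of 3 counts in fat-1 PF mice (0.126 ± 0.0156 CPM) and at 1.34 ± 1.12 CPM in fat-1 EtOH mice. Its call was lost in limma voom and without the proximal libraries. Jund, a Jun partner that many cells express without a stimulus, fell by 0.28 in EtOH mice averaged over genotypes (SE 0.10, edgeR adjusted p = 0.038), a call that was lost in 7 of 12 other settings and in 10 of 16 fits that left out 1 mouse. Of 6 EGR and NR4A relatives and co-repressors, Nr4a3, the closest kin of Nr4a1, rose by 1.82 (SE 0.40) and Nab2, which silences EGR factors, fell by 1.36 (SE 0.41, edgeR adjusted p = 0.00355 and 0.0195). The Nab2 call was lost without the proximal libraries, whereas the Nr4a3 call was lost only with the smooth muscle covariate among the settings that could be fitted.

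Of 13 feedback relatives 2 rose and 2 fell, a share near that of all genes (37.4%). Dusp10, a phosphatase for p38 and JNK, rose by 1.15 on the log2 scale (SE 0.23). Dusp5 and Dusp6, both directed at ERK, fell by 1.10 (SE 0.27) and 1.06 (SE 0.24, edgeR adjusted p = 0.00174, 0.00597 and 0.00375 in that order). The Dusp5 call was lost without the proximal libraries and the Dusp10 call without all 5 libraries. Ier5l fell by 0.72 in EtOH mice averaged over genotypes (SE 0.24, edgeR adjusted p = 0.0291), a call that was lost without either set of libraries that stood apart.

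Of 27 other early response genes 2 rose and 3 fell, beside 37.4% called among all genes, a difference that was not tested. Pim1, a growth-promoting kinase, fell by 1.68 on the log2 scale (SE 0.32), from 114 ± 16.3 to 35.8 ± 20.0 CPM. Cebpb, a bZIP factor of inflammation and differentiation, fell by 1.22 (SE 0.20), from 15.95 ± 4.77 to 6.83 ± 0.851 CPM. Gadd45g fell by 1.01 (SE 0.24), and Ccn2, a matricellular target of mechanical signals, rose by 1.03 (SE 0.34, edgeR adjusted p = 0.00167, 0.000658, 0.00526 and 0.0302 in that order). The Ccn2 call was lost without either set of libraries that stood apart, and Pim1 and Cebpb kept theirs in both of those fits, Cebpb losing it without all 5 libraries.

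Of 20 upstream regulators 2 rose and 6 fell, a share near that of all genes (37.4%). The kinases Map2k2 (MEK2), Mapk8 (JNK1) and Rps6ka5 (MSK1) fell by 1.39 (SE 0.15), 0.97 (SE 0.14) and 1.23 (SE 0.36) on the log2 scale (edgeR adjusted p = 0.000202, 0.000421 and 0.0147). The Rps6ka5 call was lost without either set of libraries that stood apart. Mrtfb, an actin-sensing partner of SRF, rose by 0.54 in EtOH mice averaged over genotypes (SE 0.09, edgeR adjusted p = 0.000924). The median log2 fold changes of the 5 lists lay from -0.21 (AP-1 genes) to 0.81 (EGR and NR4A relatives), against 0.05 for all genes.

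Heat shock genes, which also answer to handling of tissue, were measured beside them. Of 8, 3 were called in fat-1 EtOH against fat-1 PF mice, about the same share as of all genes (37.4%), and all 3 rose: Hspb1 by 1.14 (SE 0.28), Hspa1b by 1.98 (SE 0.68) and Hspa1a by 1.95 (SE 0.71) on the log2 scale, with edgeR adjusted p of 0.00567, 0.0334 and 0.044. Hspa1a and Hspa1b are near-identical copies, so reads may be split between them. The Hspa1a and Hspa1b calls were lost without either set of libraries that stood apart, and Hspb1 was lost without the proximal libraries. Their part in the values of the members was not tested.

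Pairs of members were compared over the mice of each diet. Among the 8 PF mice 40 of 45 pairs had a positive Pearson's r of log2 CPM (median 0.54), and among the 8 EtOH mice 29 of 45 (median 0.22), a difference that was not tested. Without the 2 mice farthest from the median of the first gene of a pair, 35 PF and 32 EtOH pairs were positive, and the sign changed in 7 and 9 pairs. Of these 90 relations, 2 passed an adjusted p of 0.05. Fos and Zfp36 in PF mice had r = 0.976 (permutation p = 9.92e-05, adjusted p = 0.00893) and Spearman's rho = 0.929 (permutation p = 0.00223, adjusted p = 0.0502), and r was 0.929 without the 2 mice farthest from the median of Fos. Junb and Ier2 in PF mice had r = 0.808 (permutation p = 0.00107, adjusted p = 0.048) and rho = 0.929 (permutation p = 0.00223, adjusted p = 0.0502), and r was 0.696 without the 2 outermost mice. By rho, 1 pair passed, Dusp1 and Nr4a1 in PF mice (rho = 0.976, permutation p = 0.000397, adjusted p = 0.0357).

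As deviations from the mean of each genotype, r in PF mice was 0.982 for Fos and Zfp36 (permutation p = 0.00347) and 0.76 for Junb and Ier2 (permutation p = 0.0191). Permuting within genotypes allows no p below 0.00174 in PF mice, which over 90 relations gives a single pair an adjusted p of 0.156 at best, so the threshold cannot be used to judge a pair on this scale. In EtOH mice the smallest permutation p on this scale was that of Fos with Junb (r = -0.908, permutation p = 0.00417). By r of log2 CPM itself, that pair had r = -0.276, and 0 pairs passed in EtOH mice. The top ones by log2 CPM were Egr1 with Dusp1 (r = 0.892, permutation p = 0.00179, adjusted p = 0.0536) and Junb with Zfp36 (r = 0.901, permutation p = 0.00273, adjusted p = 0.0614). Their r was 0.765 and 0.806 without the 2 outermost mice. The negative values of Junb with Ier2 (r = -0.719) and with Jun (r = -0.64) in EtOH mice rested on fat-1 EtOH mice 3 and 4, without which r was 0.813 and 0.80. Other negative values stayed negative without the 2 outermost mice. These were, among others, Nr4a1 with Zfp36 (-0.656, then -0.453), Junb with Nr4a1 (-0.647, then -0.298) and Egr1 with Junb (-0.515, then -0.651). The libraries that stood apart were among the mice of both diets. Fat-1 PF mouse 3 had the highest Fos, Egr1, Junb, Ier2, Dusp1, Nr4a1 and Zfp36 of all PF mice. Its part in the PF relations was not tested separately.

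**Figure D4:**
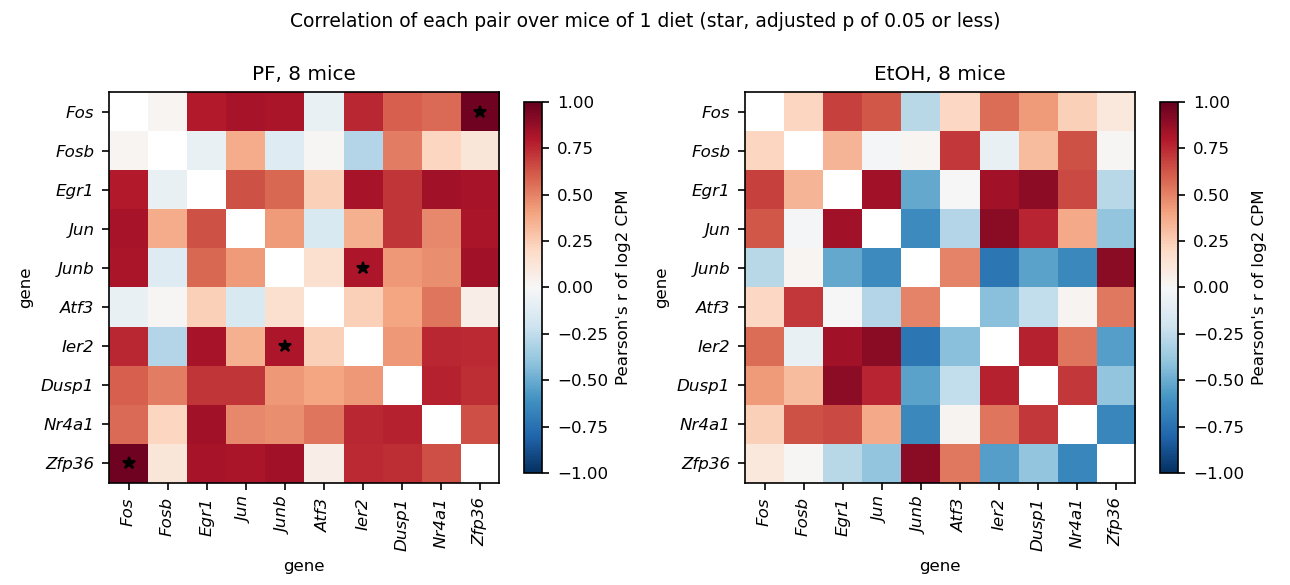
Pearson's r of log2 CPM for each pair of immediate early genes over the 8 PF mice (left) and the 8 EtOH mice (right), on a scale from -1 to 1; stars mark an adjusted p of 0.05 or less over 90 relations. The PF panel is mostly positive (40 of 45 pairs), while in the EtOH panel 29 of 45 pairs are positive. Some negative values of Junb and Zfp36 turn positive without 2 mice, and others stay negative, such as Nr4a1 with Zfp36 (-0.656, then -0.453).

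The pattern shared by the members was taken as the mean of their scaled deviations from the group means over 16 libraries. Each member is part of that mean, which raises its own r. Among the members r ran from 0.356 (Junb), 0.416 (Zfp36) and 0.419 (Fosb) to 0.789 (Fos) and 0.891 (Egr1). The 10 other genes most like it were Camk1 (r = 0.909), Ccn1 (0.857), Kifap3, Lamtor5, Btg2 (0.831), Igip, Hbegf (0.81), Gm527, Dcdc2b and Spop (0.805). Ccn1 and Btg2 are on the list of other early response genes, and Hbegf encodes a ligand of the EGF receptor. These correlations are descriptions, since the libraries share their depth and tissue make-up. Over the 13 libraries left without those high in large intestine markers, 2 of the 10 were again among the top 10, Camk1 and Lamtor5. The r of Junb (0.748) and Zfp36 (0.834) was then higher, and that of Fos (0.667), Nr4a1 (0.655), Jun (0.59) and Fosb (0.33) lower.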

How the data were processed

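RNA was poly(A)-selected and made into stranded libraries that were sequenced as paired 75-base reads. The authors deposited raw read counts per Ensembl gene and library, from reads aligned to mm10 with tophat2 and counted with htseq; the strand setting of the counting is not given in the sources used here. Counts were analysed as deposited. Symbols, positions and exon lengths came from GENCODE M21 (26 genes of the table had no entry), and upstream windows from RefSeq.

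Genes that passed filterByExpr were fitted in edgeR 4.0.16 (TMM, robust quasi-likelihood, 1 mean per group, all 16 libraries), with Benjamini-Hochberg adjustment at 0.05 over all tested genes. The 6 comparisons were the 4 pairwise ones, their interaction and the EtOH change averaged over genotypes. Single members were compared by exact two-sided permutation tests of log2(CPM + 0.5), and pairs of members within a diet by exact permutation of the mice.

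The members and lists were chosen with earlier results of these data known. All members are named; of each list up to 4 called genes with the largest change are named, and of all other genes the 10 most like the members. Each mouse is 1 library, and replicate numbers are not stated to pair mice. Deviations of same-numbered libraries correlated at -0.0225 on average (-0.252 to 0.187), other pairs at 0.00703 (-0.324 to 0.262). Such averages do not decide whether mice were paired, so the replicate block was fitted as an alternative. No 2 libraries of a group agreed within sampling noise (chi-square per degree of freedom 7.24 to 191). Alternatives were DESeq2 1.42.0, limma 3.58.1 (voom), other scalings and filters, pseudocounts of 0.1 and 2, marker covariates and left-out libraries.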

Additional observations from a re-analysis of the deposited data

Results flagged for a closer look

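In groups of 4 or 5 mice, 1 mouse stood far from the others in 5 of the 30 groups tested, where chance marks about 1 in 20. Fat-1 PF mouse 4, high in proximal markers, had 5.28 CPM of Fosb against 1.40 to 1.91 CPM in the other 3. WT PF mouse 3 had 96.5 CPM of Jun against 81.4 to 82.7 CPM. Fat-1 PF mouse 3 was marked for both Atf3 (35.3 CPM against 14.5 to 16.003) and Ier2 (88.8 CPM against 51.1 to 54.5). That mouse also had the highest Fos, Egr1, Junb, Dusp1, Nr4a1 and Zfp36 of its group, and fat-1 PF mouse 4 the highest Fosb and Jun. WT PF mouse 1 had 9.62 CPM of Dusp1 against 13.2 to 13.4 CPM.

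Zfp36 was marked because every WT EtOH mouse lay above the WT PF mean and every fat-1 EtOH mouse below the fat-1 PF mean. The interaction, which tests that difference, was -1.15 on the log2 scale (SE 0.27, edgeR adjusted p = 0.595) and so did not pass over all genes. It lay from -1.14 to -0.99 in the 12 other settings and from -1.31 to -0.97 when each mouse was left out in turn.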

How the results depend on the processing

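The number of members called in fat-1 EtOH against fat-1 PF was 4, and 3 to 5 when each mouse was left out in turn (28.5% to 39.4% of all genes). It was 3 in limma voom, where Nr4a1 lost its call, 3 with only those groups fitted, where Fos did, 2 without the proximal libraries, 2 without all 5 libraries that stood apart, 2 with the large intestine score as a covariate and 0 with the smooth muscle score as a covariate (the 5-library and large intestine score settings were chosen after seeing the data). With the smooth muscle score the fold changes were -3.12 (Fos), -0.51 (Junb), -0.54 (Zfp36) and 0.68 (Nr4a1). With the genotypes averaged, the number was 2, and it became 5 with DESeq2, 4 with limma voom, 4 without the 3 large intestine libraries, 1 with the large intestine score, 0 with the smooth muscle score and 2 to 4 leaving out each mouse (26.9% to 38.1% of all genes, 4 members without fat-1 PF mouse 1 or fat-1 EtOH mouse 1). In WT EtOH against WT PF it was 0, with 3 in limma voom, 1 (Egr1) when only those groups were fitted and 0 leaving out each mouse (0% to 0.479% of all genes). The cause of these shifts was not tested. Over all genes, fat-1 EtOH against fat-1 PF called 5170 genes, 1965 without the proximal libraries, 1626 without all 5 libraries, 2559 with the large intestine score, 0 with the smooth muscle score and 3086 with only those groups fitted. WT EtOH against WT PF called 11, with 257 in DESeq2, 2853 in limma voom, 1103 with only those groups fitted, 2 keeping genes with any count, 0 keeping genes with 10 counts in every mouse, 18 with the replicate block, 26 without the large intestine libraries, 468 without all 5 libraries, 2 with the large intestine score and 0 with the smooth muscle score. The call count averaged over genotypes was 4955, with 2754 and 0 under those scores. Fat-1 EtOH against WT EtOH called 1, with 5 in DESeq2 and 0 under the replicate block or with only those groups fitted, and fat-1 PF against WT PF called 0, with 189 in DESeq2 and 30 in limma voom. The upper-quartile scaling moved the median of all genes in fat-1 EtOH against fat-1 PF to 0.20 and the split of calls from 2578 higher and 2592 lower to 3906 and 1753 (averaged over genotypes, from 2522 and 2433 to 3643 and 1699), and the 4 member calls held. The smooth muscle score turned the sign of Egr1 (-0.11), Jun (-0.45), Ier2 (-0.72) and Dusp1 (-0.34) in WT EtOH against WT PF, and of Egr1 averaged over genotypes (-1.21). In fat-1 EtOH against fat-1 PF it turned that of Egr1 (-2.31), Jun (-0.99) and Dusp1 (-0.52), none of them called, and averaged over genotypes that of Jun (-0.72) and Dusp1 (-0.43). Of the list genes in fat-1 EtOH against fat-1 PF it turned Fosl1 (-0.17), Nab2 (0.87), Dusp5 (0.13), Ccn2 (-0.59), Rps6ka5 (0.71) and Hspb1 (-0.53). In that comparison Egr1 and Jun also changed sign without the 3 large intestine libraries, without all 5 libraries and with the large intestine score. Jun did so in limma voom as well. With the replicate block, 4 members were called in fat-1 EtOH against fat-1 PF (34.4% of all genes) and 3 averaged over genotypes (35% of all genes), where Egr1 was added (1.30, edgeR adjusted p = 0.0402), and the block ended no call of a member. The 2 related pairs in PF mice became 0 as deviations from the genotype means, where the smallest p that permuting within genotypes allows (0.00174) cannot pass for a single pair over 90 relations, so that count says nothing of the relations. Relations without the large intestine libraries were not run, since 5 EtOH mice remain. Other pseudocounts changed no side of the threshold in the permutation tests. Fold changes of members with an unadjusted p above 0.05 changed sign in 111 of 1265 refits. Depth limits Fosb and Nr4a1 most, with 10 and 18 reads in their lowest libraries.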
